A study of Rattus norvegicus with 12 samples.

Results

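In rat serum, 3 mature microRNAs from neighbouring hairpins on chromosome 13 were followed: rno-miR-199a-3p and rno-miR-199a-5p, the opposite arms of 1 hairpin, and rno-miR-214-3p from the next hairpin. They are called miR-199a-3p, miR-199a-5p and miR-214-3p below. They were chosen by name, as microRNAs known from mesenchymal cells and platelets, and are 3 of the 752 mature names in the deposited table. The members, and the cell-type lists used further on, were chosen with earlier results of these data known. Serum small RNA came from male Sprague-Dawley rats (Jcl:SD), 7 weeks old, dosed once by mouth. The CAF group received caffeine at 180 mg/kg, the DEX group dextromethorphan hydrobromide monohydrate at 200 mg/kg, the CAF+DEX group both at these doses with caffeine 1 h earlier, and the Control group the vehicle, sterile distilled water. Blood was drawn 1 h after dextromethorphan, and the interval in the CAF and Control groups is not stated. The design names 5 rats per group; 3 libraries per group were analysed here, 12 in all, named by their column numbers, of which 1, CAFDEX6, is above 5. The labels do not tie each library to a single rat, so the error in every test is the scatter among the libraries, which may be technical.

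As background, in mouse the hairpins of miR-199a and miR-214 are cut from one long noncoding transcript, Dnm3os, read from the strand opposite the dynamin gene Dnm3, and the transcript is made mainly in mesenchyme: fibroblasts, smooth muscle and the developing skeleton. The microRNAs are known from fibrosis, where activated fibroblasts and liver stellate cells make more of them. miR-199a-3p is also abundant in human platelets, so that serum, which forms as platelets release their contents during clotting, can carry it from a second source. Among textbook targets, miR-199a-3p lowers mTOR and the receptor MET in human liver cancer cells, miR-199a-5p lowers the hypoxia factor HIF-1 alpha in rat heart cells and caveolin-1 in human lung fibroblasts, and miR-214 lowers the calcium exchanger Ncx1 in mouse heart.

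The mature sequences are shown because the 3 members, although neighbours, have different seeds and so different sets of predicted targets. They are given 5′ to 3′ from RefSeq (GRCr8), with the seed, bases 2 to 8, in capitals. The fourth sequence is the other arm of the miR-214 hairpin, which the table also lists.
miR-199a-3p: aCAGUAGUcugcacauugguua
miR-199a-5p: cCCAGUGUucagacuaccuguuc
miR-214-3p: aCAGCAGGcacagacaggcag
miR-214-5p: aGAGUUGUcaugugucu

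All 4 names matched RefSeq, and the lengths of 22, 23, 21 and 17 bases equal those in the table. No other rat mature microRNA of RefSeq's table has the 7-base seed of any of the 3 members. The scarce miR-6324 shares the first 6 seed bases of miR-199a-3p and averaged 32.3 FPKM, too low to be tested. In the files' coordinates, for which the submitters' processing notes give rn6, miR-199a-5p lies at 80125517 to 80125539 and miR-199a-3p at 80125556 to 80125577 on the plus strand of chromosome 13. miR-214-5p follows at 80130918 to 80130934 and miR-214-3p at 80130975 to 80130995, so 5340 bases separate the 2 hairpins' nearest listed arms. In RefSeq's GRCr8 gene table both hairpin genes, Mir199a2 and Mir214, fall within the span of Dnm3; whether they are intronic or exonic there was not determined.

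The values are FPKM, a read count divided by the length of the mature microRNA and by the reads assigned to all listed microRNAs of the library. A level is thus a share of the microRNA reads, so a rise of an abundant microRNA lowers the others and a fall raises them. The most abundant, miR-191a-5p, had log2 fold changes against Control of -0.23 after caffeine, -0.67 after dextromethorphan and -0.53 after both drugs. None of these passed the test given below. Library totals recovered from the value steps were 1504963 to 1842796 reads in CAF, 403913 to 895792 in DEX, 758290 to 1160717 in CAF+DEX and 1304868 to 2625593 in Control. A common sign of haemolysis, the level of red-cell miR-451-5p relative to miR-23a-3p, ran on the log2 scale from -7.09 to -6.39 in CAF, -6.46 to -5.12 in DEX, -6.42 to -5.66 in CAF+DEX and -7.79 to -7.09 in Control. The ratio rested on 38 (ctrl5) to 139.5 (ctrl3) recovered reads of miR-451-5p per library. DEX2 and DEX3 were the shallowest libraries, had the highest of these ratios and lay far from the rest along principal component 2, at 12.7 and 10.7 where no other library was over 1.58, so the calls on the members and the list counts are also given without them and with the ratio as a covariate. With that covariate far fewer of the 366 passed: 5 in place of 29 after caffeine, 1 in place of 44 after dextromethorphan and 1 in place of 40 after both drugs. Every treated library had a higher ratio than every Control library, the nearest being CAF3 at -7.0886 and ctrl3 at -7.0914. The covariate therefore cannot be told apart from treatment, and calls kept or lost with it do not decide the part of red cells. The part of depth and red cells was not tested. In serum no marker gene can check the word stromal for a microRNA, so it is used here as the literature's name for a list. Differences were tested with limma on log2(FPKM + 40) over all 366 microRNAs that passed a filter on low values, and adjusted p-values are Benjamini-Hochberg over these 366 within a comparison, with a threshold of 0.05. All 3 members passed the filter; miR-214-5p did not.

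The members differed widely in level. Per length, miR-199a-3p averaged 217 times the FPKM of miR-199a-5p and 67.7 times that of miR-214-3p over the 12 libraries, and miR-214-3p averaged 3.21 times the FPKM of miR-199a-5p. miR-199a-3p ranked between 30 and 48 among the 752 names and took 0.125% to 0.489% of reads in a library. miR-214-3p ranked between 157 and 223 and miR-199a-5p between 202 and 328. The order miR-199a-3p, miR-214-3p, miR-199a-5p was the same in every library. One limit touches the levels. The recovered counts of miR-199a-3p were whole in 1 of 12 libraries and lay within 0.0051 of a multiple of a sixth of a read in 12 of 12, as arises when reads that match several places are divided among them. Those of miR-199a-5p were whole in 12 of 12 and those of miR-214-3p in 10 of 12. Levels and ratios that involve miR-199a-3p therefore depend on how the authors divided such reads. How much of its level came from the chromosome 13 hairpin was not determined.

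miR-199a-3p had 162980, 163059 and 137339 FPKM after caffeine, 222260, 85721 and 176099 FPKM after dextromethorphan, 81443, 152666 and 92739 FPKM after both drugs, and 65879, 56740 and 78448 FPKM in Control. Each of the 9 treated libraries lay above all 3 Control libraries, a pattern shared by 23 of 366 tested microRNAs (6.28%). The 3 CAF libraries lay close together, whereas DEX2, CAFDEX2 and CAFDEX6 were the treated libraries nearest to Control. These levels rest on 836.5 to 6611 recovered reads per library.

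miR-214-3p had 2630, 2184 and 2025 FPKM after caffeine, 2977, 1181 and 2829 FPKM after dextromethorphan, 1466, 1821 and 1518 FPKM after both drugs, and 1392, 1106 and 657 FPKM in Control. Of the 9 treated libraries 8 lay above all 3 Control libraries, and DEX2 lay between Control libraries. How many of all tested microRNAs reach 8 of 9 was not determined. As for miR-199a-3p, DEX1 and DEX3 were the high and DEX2 the low library of the dextromethorphan group. Recovered counts ran from 11 reads in DEX2 to 85 in CAF3.

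miR-199a-5p had 678, 1109 and 780 FPKM after caffeine, 680, 490 and 215 FPKM after dextromethorphan, 544, 1032 and 412 FPKM after both drugs, and 165, 248 and 433 FPKM in Control. Of the 9 treated libraries 7 lay above all 3 Control libraries, while DEX3 and CAFDEX6 did not. How many of all tested microRNAs reach 7 of 9 was not determined. DEX3, high for the other 2 members, was the low library of its group here. The levels rest on few reads: 24, 47 and 27 after caffeine, 14, 5 and 2 after dextromethorphan, 13, 18 and 11 after both drugs, and 8, 15 and 13 in Control. The 2 reads in DEX3 have an exact 95% Poisson interval of 0.242 to 7.22 reads, which covers counting error only.

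miR-214-5p, the other arm of the miR-214 hairpin, was close to the limit of the data. It had 5, 2 and 4 reads after caffeine, 1, 0 and 0 after dextromethorphan, 1 in each library after both drugs, and 1 in each Control library. A count of 0, as in DEX2 and DEX3, allows up to 3.69 reads by the exact 95% Poisson interval, so a difference between DEX and the other groups was not detectable at this depth. The 3 CAF libraries had the most reads, but too few for the test.

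**Figure D1:**
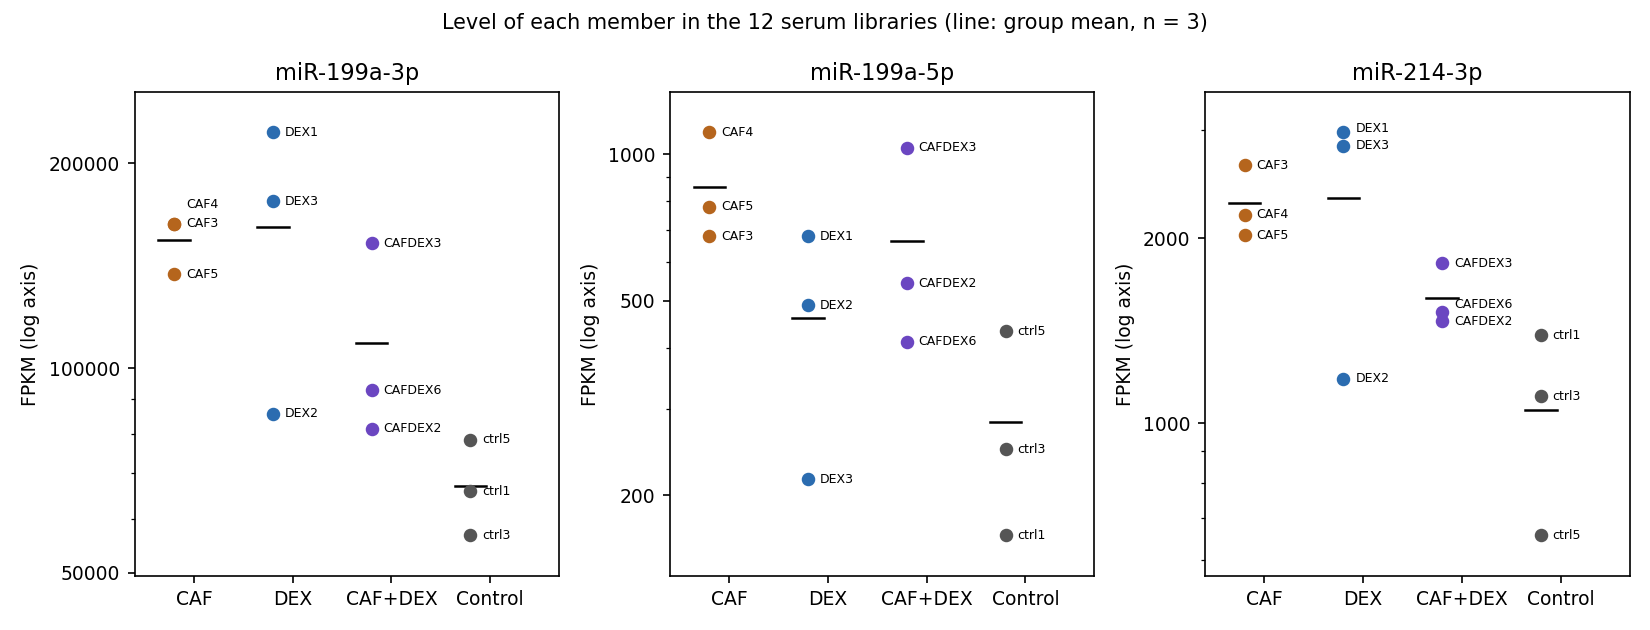
FPKM on a log axis of miR-199a-3p, miR-199a-5p and miR-214-3p in each of the 12 libraries, by group, with a line at each group's mean (n = 3). For miR-199a-3p all 9 treated libraries sit above all 3 Control libraries, as for 6.28% of the 366 tested microRNAs. For miR-214-3p 8 of 9 do and for miR-199a-5p 7 of 9, counts whose share over all tested was not determined.

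Serum collects RNA released by many kinds of cells, so that fewer or more cells of a type and less or more RNA released per cell cannot be told apart in any of the differences that follow. The first comparison asks what caffeine alone did. miR-199a-3p rose after caffeine, with a mean of 154459 ± 14827 FPKM against 67022 ± 10899 FPKM in Control (SD, n = 3 each). The difference was 2.32-fold (95% interval 1.43 to 3.75), a log2 fold change of 1.21 ± 0.33 (SE), with a limma adjusted p of 0.0419. In this comparison 7.92% of tested microRNAs passed, 6.83% as higher and 1.09% as lower. miR-199a-5p averaged 856 ± 225 FPKM after caffeine and 282 ± 137 FPKM in Control, a fold of 2.89 (1.40 to 5.98) that did not pass (limma adjusted p = 0.0630). miR-214-3p averaged 2280 ± 314 FPKM after caffeine and 1052 ± 370 FPKM in Control, a fold of 2.20 (1.24 to 3.91) that did not pass either (0.0756). For each of the 3 members all 3 CAF libraries lay above all 3 Control libraries, which held for 26.0% of the tested microRNAs. The median log2 fold change of the 366 was 0.19, and the members lay above it by 1.03, 1.35 and 0.96 log2 units in the order given.

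The caffeine call on miR-199a-3p sits near the threshold. Its limma adjusted p was 0.0779 with median-of-ratios scaling, 0.0884 with quantile normalization, 0.0512 with a pseudocount of 1 FPKM, 0.0790 with the filter on low values removed and 0.0863 with no mean-variance trend. It was 0.0984 without CAF3, 0.112 without CAF4, 0.0995 without CAF5, 0.136 without ctrl1, 0.177 without ctrl3 and 0.0545 without DEX3. It held without DEX2 and DEX3 together (0.0128) and with the red-cell ratio as a covariate (0.0454, log2 fold change 1.63). The other 2 members passed in a fit of the 2 groups alone, miR-199a-5p with a limma adjusted p of 0.0270 and miR-214-3p with 0.0413, and both passed without DEX2 and DEX3 (0.0378 each). miR-199a-5p also passed with voom on the recovered counts (0.0297), without ctrl5 (0.0411) and without DEX1 (0.0472), and miR-214-3p without DEX2 (0.0475).

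The second comparison asks what dextromethorphan alone did. miR-199a-3p rose again, to 161360 ± 69452 FPKM against 67022 ± 10899 FPKM in Control (SD, n = 3 each). It was 2.25-fold higher (1.39 to 3.65), a log2 fold change of 1.17 ± 0.33 (SE, limma adjusted p = 0.0352), where 12.0% of tested microRNAs passed, 11.5% as higher and 0.546% as lower. miR-214-3p averaged 2329 ± 997 FPKM after dextromethorphan and 1052 ± 370 FPKM in Control, a fold of 2.10 (1.18 to 3.72) that did not pass (limma adjusted p = 0.0714). miR-199a-5p averaged 462 ± 233 FPKM after dextromethorphan and 282 ± 137 FPKM in Control, a fold of 1.51 (0.732 to 3.13, limma adjusted p = 0.399). All 3 DEX libraries lay above all 3 Control libraries for miR-199a-3p, as for 26.0% of those tested, and 2 of 3 did for each other member. The median log2 fold change of the 366 was 0.47 here, and miR-199a-3p lay 0.70 above it, miR-214-3p 0.59 and miR-199a-5p 0.12. The DEX and CAF comparisons share the 3 Control libraries, so the similar folds of miR-199a-3p are not independent of each other.

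For miR-199a-3p after dextromethorphan the limma adjusted p was 0.106 with median-of-ratios scaling, 0.118 with quantile normalization, 0.0759 after rescaling without the most abundant microRNA, miR-191a-5p, 0.0625 in a fit of the 2 groups alone, 0.0578 with no filter and 0.0700 with no trend. Leaving out ctrl1 gave 0.103, ctrl3 0.132, DEX1 0.0732 and DEX3 0.125, and the value was 0.0159 without DEX2 and DEX3 together, where the 1 DEX library left is assumed to vary like the other groups. With the red-cell ratio as a covariate its log2 fold change was 2.18 and the adjusted p was 0.239. miR-214-3p passed without DEX2, the library with 11 reads (log2 fold change 1.49, limma adjusted p = 0.0233).

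The third comparison asks what both drugs did together. By limma 0 of the 3 members passed, and 1, miR-199a-5p, had an unadjusted p under 0.05, as had 28.1% of all tested; 10.9% of all tested passed, 6.56% as higher and 4.37% as lower. miR-199a-3p averaged 108949 ± 38279 FPKM after both drugs and 67022 ± 10899 FPKM in Control (SD, n = 3 each), a fold of 1.58 (0.974 to 2.56, limma adjusted p = 0.195). miR-199a-5p averaged 663 ± 327 FPKM after both drugs and 282 ± 137 FPKM in Control, a fold of 2.16 (1.04 to 4.47, 0.154). miR-214-3p averaged 1602 ± 192 FPKM after both drugs and 1052 ± 370 FPKM in Control, a fold of 1.56 (0.882 to 2.77, 0.296). All 3 CAF+DEX libraries lay above all 3 Control libraries for miR-199a-3p and miR-214-3p, which held for 18.0% of the tested microRNAs. For miR-199a-5p 2 of 3 did. Under no alternative tried, voom included, did a member pass.

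**Figure D2:**
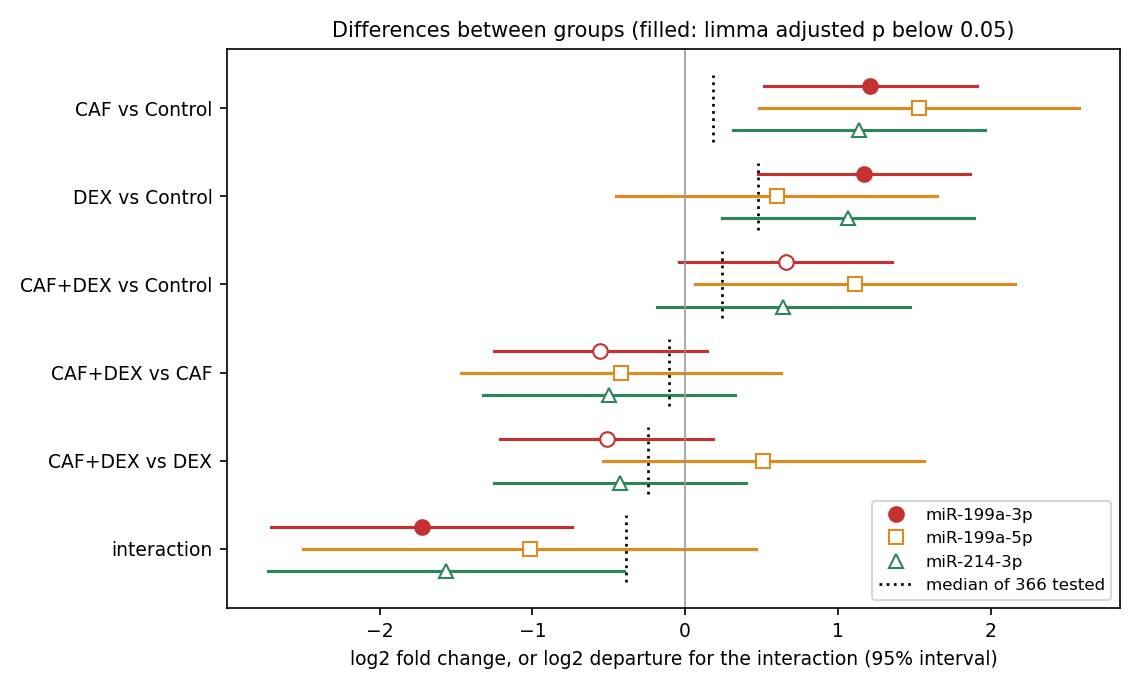
Log2 fold change of each member with its 95% interval in the 5 comparisons between groups and log2 departure in the interaction, from limma; filled symbols have an adjusted p below 0.05 and dotted lines mark the median of the 366 tested microRNAs. miR-199a-3p is filled for CAF against Control (1.21), for DEX against Control (1.17) and for the interaction (-1.73).

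Against each single drug, the combination was set to show what the second drug added. Relative to caffeine alone, both drugs gave miR-199a-3p a log2 fold change of -0.55 ± 0.33 (SE, limma adjusted p = 0.793), miR-199a-5p -0.42 ± 0.49 (0.893) and miR-214-3p -0.50 ± 0.39 (0.893). All 3 CAF+DEX libraries lay below all 3 CAF libraries for miR-214-3p, which held for 7.38% of those tested, and 2 of 3 did for each arm of miR-199a. With limma 0 of the 366 microRNAs passed in this comparison, 22 had an unadjusted p under 0.05 (6.01%), and voom also gave 0. Relative to dextromethorphan alone, where 3.55% passed, both drugs gave miR-199a-3p a log2 fold change of -0.51 ± 0.33 (0.493), miR-214-3p -0.43 ± 0.39 (0.622) and miR-199a-5p 0.51 ± 0.49 (0.650). The 95% intervals of the differences for miR-199a-3p, 0.420-fold to 1.10-fold against caffeine and 0.432-fold to 1.14-fold against dextromethorphan, hold both a fall of over 2-fold and no difference.

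The interaction contrast asks whether the combination departed from the sum of the single-drug effects on the log2 scale. For miR-199a-3p it was lower than the sum by a log2 departure of -1.73 ± 0.46 (SE, with 3 libraries in each group; limma adjusted p = 0.0415), 0.302 of the level that the sum gives (95% interval 0.153 to 0.598). In this contrast 4.64% of tested microRNAs passed, all of them lower. miR-214-3p departed by -1.57 ± 0.55 (0.117) and miR-199a-5p by -1.02 ± 0.70 (0.457), which did not pass, and the median of the 366 was -0.39. The contrast uses the same libraries as the single-drug comparisons, and a shift shared by all treated libraries also gives a negative departure, so it cannot be told apart from an effect of the pair. The call on miR-199a-3p held with the red-cell ratio as a covariate (limma adjusted p = 0.0403) and with voom (0.0374). Without DEX2 and DEX3 together the departure stayed negative, but DEX was then DEX1 alone, the highest of the 12 libraries at 222260 FPKM. The call was lost with median-of-ratios scaling (limma adjusted p = 0.202), quantile normalization (0.191), rescaling without miR-191a-5p (0.0575), a pseudocount of 1 FPKM (0.0532), no low-value filter (0.0744) and no trend (0.0989). Among single libraries it was kept without CAFDEX3 (0.0155), DEX2 (0.00456) and ctrl5 (0.0371), and lost without CAF3 (0.101), CAF4 (0.0856), CAF5 (0.0802), CAFDEX2 (0.123), CAFDEX6 (0.121), ctrl1 (0.0797), ctrl3 (0.114), DEX1 (0.0585) and DEX3 (0.0957). miR-214-3p passed without DEX2 (-1.99, limma adjusted p = 0.0381).

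A ratio of 2 microRNAs within a library does not depend on how the library was scaled, apart from the 40 FPKM added to each here. The ratio of miR-199a-3p to miR-214-3p, from adjacent hairpins, was 61.1, 73.4 and 66.5 after caffeine, 73.7, 70.2 and 61.4 after dextromethorphan, 54.1, 82.1 and 59.6 after both drugs, and 46.04, 49.5 and 113 in Control. On the log2 scale the means were 6.06 ± 0.13 in CAF, 6.09 ± 0.14 in DEX, 6.0 ± 0.31 in CAF+DEX and 5.99 ± 0.72 in Control (SD, n = 3 each). Over all 12 libraries the groups' means did not differ past the threshold (exact permutation p = 0.989 over 369600 assignments, adjusted 0.989 over 3 ratios). The Control mean was the mean of unlike libraries: ctrl1 at 5.52 and ctrl3 at 5.63 were the lowest of the 12, below all 9 treated libraries, and ctrl5 at 6.82, with 18 reads of miR-214-3p, was the highest. Without ctrl5 the exact permutation p was 0.0971, and without each other library it was 0.912 to 0.998.

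The ratio between the arms of miR-199a ran from 140 to 690. It need not be the ratio within 1 hairpin, because the counts of miR-199a-3p look like reads divided among several places. miR-199a-3p over miR-199a-5p was 227, 142 and 168 after caffeine, 309, 162 and 690 after dextromethorphan, 140, 142 and 205 after both drugs, and 321, 197 and 166 in Control. The log2 means were 7.45 ± 0.34 in CAF, 8.35 ± 1.05 in DEX, 7.32 ± 0.31 in CAF+DEX and 7.77 ± 0.49 in Control, with no difference between groups past the threshold (exact permutation p = 0.224, adjusted 0.673). The highest value, in DEX3, rests on the 2 reads of miR-199a-5p; without DEX2, which had 5, the exact permutation p was 0.0371. miR-199a-5p over miR-214-3p had log2 means of -1.39 ± 0.47 in CAF, -2.25 ± 1.15 in DEX, -1.32 ± 0.50 in CAF+DEX and -1.78 ± 1.14 in Control (exact permutation p = 0.572, adjusted 0.858). Comparisons of a single drug group with Control, 3 against 3, cannot give a p below 0.1, and none of the 9 reached it.

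**Figure D3:**
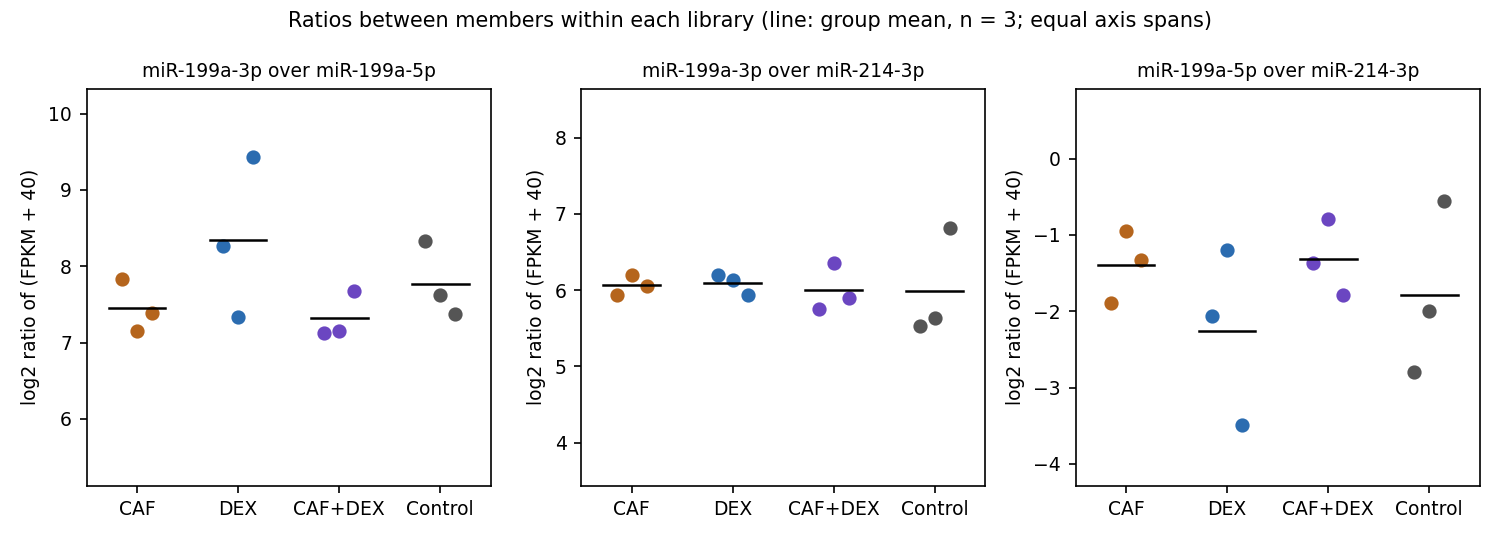
Log2 ratio of (FPKM + 40) for each pair of members in each library, by group, with a line at the group mean (n = 3) and the same axis span in all panels. The ratio of miR-199a-3p to miR-214-3p lies between 5.76 and 6.36 in the 9 treated libraries, and the Control libraries lie outside that range, ctrl1 and ctrl3 below it at 5.52 and 5.63 and ctrl5 above it at 6.82.

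Profiles over the 12 libraries were compared by the root mean square difference of log2(FPKM + 40), each profile centred on its own mean; a value of 0 would be the same profile. Of the 365 other tested microRNAs, miR-199a-3p was the nearest to miR-214-3p, at 0.33 log2 units, against a median of 0.78 to all others. Seen from miR-199a-3p, miR-214-3p was the third nearest, after miR-10b-5p at 0.26 and miR-99a-5p at 0.31. miR-10b-5p lies in a Hox gene cluster and miR-99a-5p belongs to the miR-100 family; both stand on the stromal list described further on. miR-199a-3p itself varied by 0.61 log2 units about its mean, as a root mean square. miR-214-3p was followed by miR-149-5p at 0.35 and miR-181a-2-3p at 0.37. The other arm, miR-199a-5p, was farther off: 0.65 from miR-199a-3p, where it ranked 101 of 365, and 0.81 from miR-214-3p, where it ranked 209. Both distances depend in part on DEX3, where miR-199a-5p rests on 2 reads. Its centred value there was -1.06, against 0.65 for miR-199a-3p and 0.74 for miR-214-3p. The nearest to miR-199a-5p were miR-674-3p at 0.30, miR-497-5p at 0.40 and miR-125b-5p at 0.40. Likeness over 12 libraries also carries what the libraries share, such as depth and composition, and no test was made of it.

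The nearest microRNAs were close over the 12 libraries without matching in every comparison. miR-10b-5p, nearest to miR-199a-3p, had a log2 fold change of 1.03 ± 0.31 after caffeine, 0.87 ± 0.31 after dextromethorphan and 0.44 ± 0.31 after both drugs against Control (SE), and a departure of -1.47 ± 0.43. miR-674-3p, nearest to miR-199a-5p, had 1.02 ± 0.34, 0.56 ± 0.34 and 0.92 ± 0.34 in the same order. After caffeine the second nearest to miR-199a-3p, miR-99a-5p, had 0.55 ± 0.38 against 1.21 for miR-199a-3p, and miR-149-5p had 0.63 ± 0.27 and miR-181a-2-3p 0.49 ± 0.42 against 1.14 for miR-214-3p. All these values follow from the choice by likeness and are given as descriptions.

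**Figure D4:**
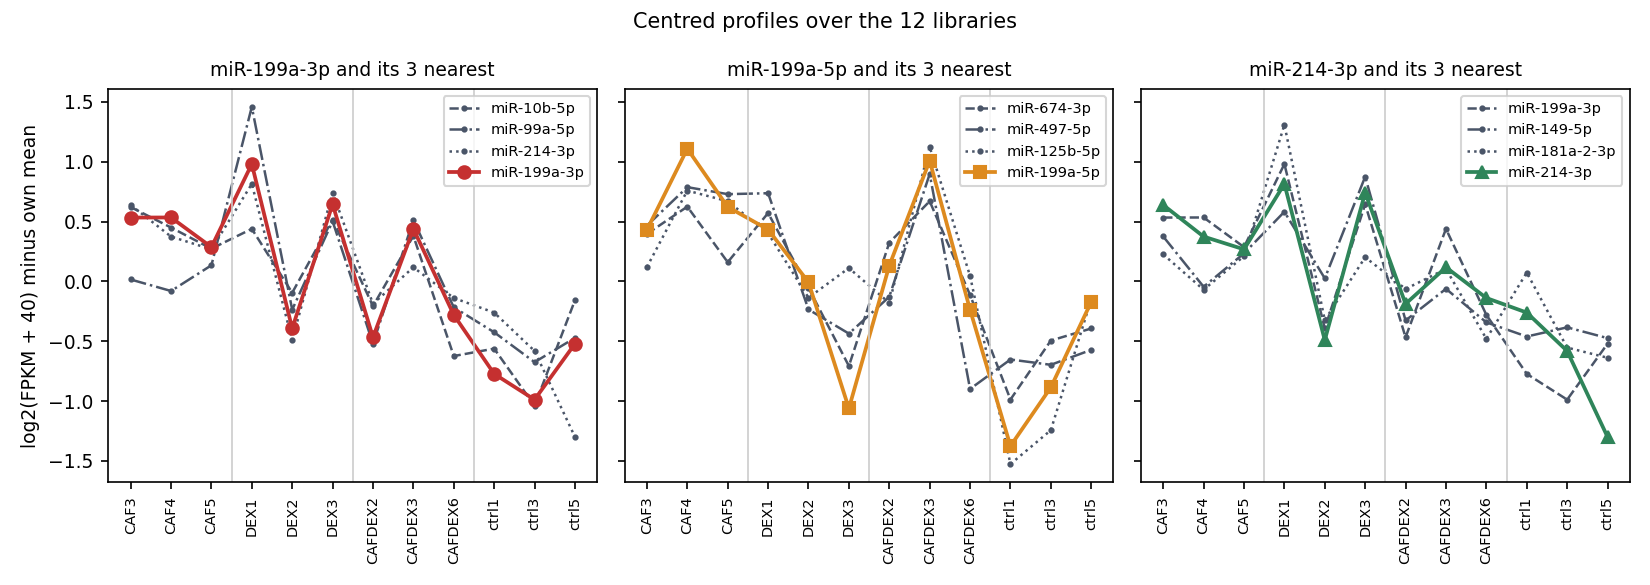
Log2(FPKM + 40) minus its own mean in each library, for each member (thick line) and its 3 nearest microRNAs (thin grey lines), with groups divided by vertical lines. miR-199a-3p and miR-214-3p share the peaks in DEX1 and DEX3 and the dip in DEX2; miR-199a-5p has its low points in ctrl1 and DEX3.

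The members were set beside lists of microRNAs known from cell types that can release RNA to serum. Many of these microRNAs are made in other tissues too, so the lists do not locate a source. Over all 366 tested, 6.83% passed as higher after caffeine, 11.5% after dextromethorphan and 6.56% after both drugs, and 4.64% as lower in the interaction; the list counts are to be read against these shares. Of 19 stromal microRNAs (fibroblast and smooth muscle), all tested, 6 rose after caffeine and 0 fell, against 6.83% of all tested as higher: miR-10b-5p, miR-125b-5p, miR-27b-3p, miR-218a-5p, miR-127-3p and miR-382-5p, the last 2 of which belong to the imprinted Dlk1-Dio3 cluster. miR-125b-5p had a log2 fold change of 1.49 ± 0.37 (SE, limma adjusted p = 0.0308). The list's median log2 fold change was 0.92, against 0.19 for all tested. Medians of the other lists, some of them higher, are given further on. After dextromethorphan miR-27b-3p, miR-29b-3p, which targets collagen messages, and miR-140-3p, known from cartilage, rose (3 of 19, near the 11.5% of all tested; median 0.97 against 0.47). After both drugs miR-125b-5p alone rose (1 of 19, near the 6.56% of all tested; median 0.45 against 0.24). In the interaction miR-152-3p departed by -1.39 ± 0.37 (limma adjusted p = 0.0415), the 1 call of 19 and near the 4.64% of all tested, and the list's median was -1.39, against -0.39. The smooth muscle microRNAs miR-143-3p and miR-145-5p did not pass in any of the 3 comparisons with Control; their log2 fold changes after caffeine were 0.31 and 1.25. The 6 calls after caffeine were 7 without DEX2 and DEX3, 8 with voom and 11 in the groups alone, but 2 without miR-191a-5p, 1 with a pseudocount of 1 FPKM and 0 with median-of-ratios or quantile scaling, no filter, no trend or the red-cell covariate. Without CAF3 or DEX3 there was 1, without CAFDEX2 there were 2, and without CAF4, CAF5, ctrl1 or ctrl3 there were 0. The 3 calls after dextromethorphan were 4 without DEX2 and DEX3 together, and 0 with the red-cell covariate, median-of-ratios scaling, no trend or rescaling without miR-191a-5p, and 1 with quantile normalization or no filter. Without DEX3, ctrl1 or ctrl3 there were 0, without DEX2 there was 1, without CAFDEX6 there were 5 and without CAFDEX3 there were 9. After both drugs the 1 call was lost without CAF5, CAFDEX2, CAFDEX3, ctrl1 or ctrl3, while 3 passed without DEX1 or without DEX2 and DEX3 together, 4 without ctrl5 and 5 without CAFDEX6. The 1 interaction call was 6 without DEX2 and DEX3 together, 9 without CAFDEX3 and 4 without ctrl5, stood at 1 without DEX1 or DEX2, and was lost without any of the other libraries. Both the call after both drugs and that in the interaction were lost with median-of-ratios scaling, no filter, no trend, rescaling without miR-191a-5p and the red-cell covariate, and voom gave 2 calls after both drugs. Summed, the list held 3.06e+06 to 4.44e+06 FPKM in CAF, 4.19e+06 to 5.18e+06 in DEX, 2.38e+06 to 4.35e+06 in CAF+DEX and 2.22e+06 to 2.37e+06 in Control, with no marker at 0.

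Platelet microRNAs showed other values. Of 10 listed 9 were in the table and tested, and none of the 9 was at 0 in any library. After caffeine 0 rose and miR-20a-5p fell (log2 fold change -1.27 ± 0.37, SE, limma adjusted p = 0.0475), against 1.09% of all tested as lower. Without DEX2 and DEX3 together 1 of the 9 also passed as lower. The call was lost without CAF4, CAF5, CAFDEX2, CAFDEX6, DEX2, DEX3, ctrl1 or ctrl3, and with the red-cell covariate, a pseudocount of 1 FPKM, no filter, no trend, the groups alone or the highest copy of each name only. After dextromethorphan 0 of 9 passed by limma and by voom, and 4 had an unadjusted limma p under 0.05 (miR-223-3p, miR-191a-5p and miR-20a-5p lower, miR-126a-3p higher). The share of all tested at that unadjusted level was not determined for this comparison, so the count does not set the list apart. After rescaling by median of ratios, 3 of the 9 passed there as lower. After both drugs miR-126a-3p, which endothelium also makes, rose (1.60 ± 0.48, 0.0441) and miR-20a-5p fell (-1.90 ± 0.37, 0.0074); without ctrl1 neither passed, and without CAF3, CAF4, CAF5, CAFDEX2, CAFDEX3, DEX3 or ctrl3 miR-20a-5p was the sole call. Over all tested, 6.56% passed there as higher and 4.37% as lower. Without DEX2 and DEX3 together 1 passed as higher and 1 as lower, and with the red-cell covariate 0 passed. With a pseudocount of 1 FPKM, no filter, no trend or the groups alone 1 of the 9 passed, as lower, as did 1 of the 8 left after rescaling without miR-191a-5p, and with quantile normalization 2 passed, both lower. The list's median log2 fold change was -0.13, -0.13 and -0.41 in that order, against 0.19, 0.47 and 0.24 for all tested. miR-223-3p, among the most abundant microRNAs of platelets and granulocytes, had log2 fold changes of -0.20, -0.66 and -0.22, none of which passed. Summed, the list held 1.49e+07 to 1.93e+07 FPKM in CAF, 1.19e+07 to 1.52e+07 in DEX, 1.19e+07 to 1.68e+07 in CAF+DEX and 1.90e+07 to 2.12e+07 in Control. These sums include miR-191a-5p. The part of platelet RNA in the level of miR-199a-3p was not tested.

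Among other lists, endothelial microRNAs passed as higher in 0 of 6 after caffeine (limma, with 1 at an unadjusted p under 0.05), 2 of 6 after dextromethorphan (miR-222-3p and miR-322-5p) and 1 of 6 after both drugs. The share of all tested at the unadjusted level after caffeine was not determined. Among red-cell microRNAs, miR-144-5p and both arms of miR-451 rose after dextromethorphan (3 of 6). The others did not pass: miR-144-3p had a log2 fold change of 1.90 (limma adjusted p = 0.0818), miR-16-5p 0.23 (0.412) and miR-92a-3p -0.82 (0.0608). miR-92a-3p fell after caffeine and after both drugs, and miR-451-5p rose after both. Liver microRNAs rose in 3, 4 and 2 of 6, striated muscle in 3, 1 and 2 of 4, leukocyte in 2, 1 and 3 of 8 and epithelium in 1, 7 and 0 of 8, after caffeine, dextromethorphan and both drugs in turn (limma). Of the 8 epithelial microRNAs, 3 had an unadjusted limma p under 0.05 after both drugs, as had 28.1% of all tested. Counts near the shares of all tested given above, such as 1 of 8 leukocyte microRNAs after dextromethorphan, say nothing particular of a list. With the red-cell covariate these 6 lists had few calls, all higher: 1 of 6 liver microRNAs in each comparison, and after caffeine 2 of 4 of striated muscle and 1 of 8 of epithelium. Without DEX2 and DEX3 together the calls after dextromethorphan were 5 for liver, 2 for epithelium and 0 for the endothelial, red-cell, muscle and leukocyte lists. Higher calls were then 3, 3, 2, 3, 0 and 0 after caffeine for liver, muscle, leukocyte, epithelium, red cells and endothelium, and 4, 3, 4, 1, 1 and 1 after both drugs. The part of these sources in the level of miR-199a-3p was not tested.

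**Figure D5:**
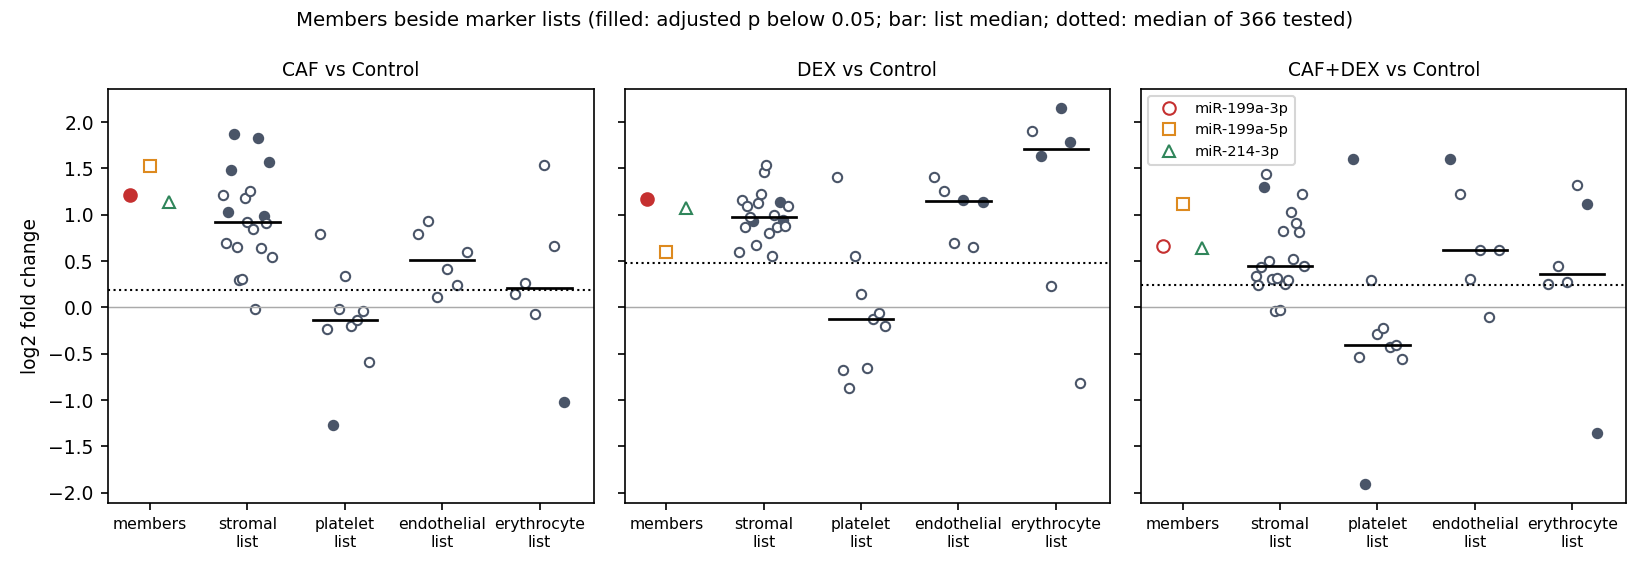
Log2 fold change against Control after caffeine, dextromethorphan and both drugs, for the 3 members and for each tested microRNA of the stromal, platelet, endothelial and erythrocyte lists; filled points have an adjusted p below 0.05, bars mark list medians and the dotted line the median of all 366. The members lie within the range of the stromal points in each panel. They also lie within the range of the platelet points after dextromethorphan and after both drugs, and above it after caffeine. The platelet median was -0.13, -0.13 and -0.41. Points of the other lists reach as high: the erythrocyte miR-451-3p had 1.54 after caffeine. miR-126a-3p, on the platelet and endothelial lists, had 1.41 after dextromethorphan and 1.60 after both drugs. The source of the members was not tested.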

How the data were processed

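Each library has 1 column of FPKM per mature microRNA, deposited by the authors. The submitters' processing notes list build rn6, DESeq2 1.20.0, Subread 2.0.1 with featureCounts, STAR 2.7.10a and cutadapt 3.7; what each was used for, and whether the kit's molecular indices were, is not stated there. Column prefixes gave the group. Column numbers, which name libraries here, did not match the sample titles, and 1 of them, CAFDEX6, is above the 5 rats per group of the design. The 836 rows were summed to 752 names. FPKM above 0 fell on counts in steps of 0.01 read in every library (tolerance 0.0001), 65.4% to 75% of them whole, which gave the totals. A name was tested if its mean reached 80 FPKM and it was above 0 in 3 or more libraries. limma 3.58.1 in R 4.3.3 fitted all 4 groups with a trend (8 residual, 7.584 prior degrees of freedom), two-sided, and was tested on simulated data. Ratios of FPKM + 40 were tested by exact permutation, two-sided. The log2(FPKM + 40) scale understates changes of low microRNAs; 40 was set from the 10th percentile of each library's values above 0, as their rounded median. Alternatives changed the pseudocount, filter, scaling, groups fitted, trend, test, covariate, copies and libraries. Named microRNAs were the members, their hairpins' arms, the 3 nearest profiles of each and passing list members; miR-143-3p, miR-145-5p and miR-223-3p were named after their values were seen. Members and lists were chosen with earlier results of these data known, and the recount of lists across settings was added after seeing the data. Analyses ran in Python 3.11.15 with numpy 2.4.6 and pandas 2.3.3; matplotlib 3.10.9 drew the figures.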

Additional observations from a re-analysis of the deposited data

Results flagged for a closer look

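In the main fit, the difference between caffeine and no caffeine for miR-199a-3p was not the same with and without dextromethorphan. The test of that difference, the interaction in limma, gave a log2 departure of -1.73 ± 0.46 (SE, n = 3 per group, adjusted p = 0.0415). The median departure of the 366 tested was -0.39. A shift shared by all treated libraries cannot be told apart from an effect of the pair. The caffeine difference was -0.51 log2 units with dextromethorphan in both groups and 1.21 log2 units without it. Over 11 alternatives the departure ran from -2.34 to -1.14 and passed in 5, and it passed in 3 of the 12 fits that left out 1 library (limma adjusted p from 0.00456 to 0.123).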

How the results depend on the processing

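The 3 members in 6 contrasts were recomputed under 12 alternatives (11 for the interaction, which the groups alone cannot give) and their 3 ratios under the 4 that bear on them, and each without 1 library at a time; 428 of the values kept their direction and their side of the threshold, 37 fell short of it, 11 newly passed and 1 reversed. For miR-199a-3p after caffeine the log2 fold change was 1.21 with a pseudocount of 1 FPKM, without the filter and without the trend, 0.96 with median-of-ratios factors and 0.98 after quantile normalization, each no longer passing. After dextromethorphan it no longer passed at 1.17 without the filter, without the trend or in the groups alone, 0.76 with median-of-ratios scaling, 0.77 with quantile normalization, 0.90 without miR-191a-5p and 2.18 with the red-cell covariate. Its interaction no longer passed at -1.73 with a pseudocount of 1 FPKM, without the filter or without the trend, at -1.23, -1.14 and -1.57 with the scalings in the same order. After caffeine miR-199a-5p newly passed at 1.53 in the groups alone and without DEX2 and DEX3, and at 1.70 with voom, and miR-214-3p at 1.14 in the groups alone and without DEX2 and DEX3. miR-199a-5p in CAF+DEX against DEX reversed to -0.13 without DEX2 and DEX3, and the cause was not tested.

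Leaving out 1 library at a time, miR-199a-3p ranged from 1.10 to 1.33 after caffeine (6 of 12 passing), 0.89 to 1.57 after dextromethorphan (8 of 12) and -2.13 to -1.44 in the interaction (3 of 12). miR-199a-5p ranged from 1.25 to 1.85 after caffeine. miR-214-3p ranged from 0.85 to 1.37 after caffeine, 0.78 to 1.49 after dextromethorphan and -1.99 to -1.27 in the interaction. For the arm ratio the exact permutation p ranged from 0.0371 to 0.543, and for miR-199a-3p over miR-214-3p from 0.0971 to 0.998. With median-of-ratios factors the median of the 366 log2 fold changes was -0.04 after caffeine, 0.11 after dextromethorphan and 0.10 in the interaction, against 0.19, 0.47 and -0.39 as reported, and the calls of all tested were 12 higher and 7 lower after caffeine, against 25 and 4, and 15 and 19 after dextromethorphan, against 42 and 2. After both drugs they were 19 and 25, against 24 and 16. The number passing, 29 after caffeine, 44 after dextromethorphan, 40 after both drugs and 17 in the interaction, ranged over the alternatives from 5 to 65, 1 to 45, 1 to 60 and 7 to 20, and without 1 library from 4 to 44, 12 to 74, 3 to 56 and 8 to 38. Depth limits miR-199a-5p, with 2 to 47 reads, most. No paired analysis was possible because the column numbers do not match the replicate numbers in the sample titles.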
